A study of Mus musculus with 180 samples.

Results

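The ribosomal protein genes are the 85 genes, of 31053 features of the embryoid body library, whose symbol is Rpl or Rps followed by a number, together with Rplp0, Rplp1 and Rplp2. Pseudogene symbols, Rps3a2 and the Rps6k kinase genes were left out, and the choice used names alone. The symbol rule also took in Rps19bp1, which encodes a protein that binds RPS19 and is not itself part of the ribosome. Of the 85 genes, 83 stood in the RNA table of embryonic stem cells (ESCs), which holds 12730 genes. The table of epiblast-like cells (EpiLCs) held 84 of them among 12735 genes. Rpl3l, a muscle paralogue of Rpl3, was listed in neither table, and Rps12 was listed for EpiLCs and not for ESCs. All listed members passed the filter on low values, a mean of at least 0.5, although Rps12 did so through its D2 values alone.

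The study compared cell lines of DBA/2J (D2) mice, of the B6D2F1/J hybrid (F1), of BXD strains, which are inbred strains that carry recombined D2 and C57BL/6J genomes, and of C57BL/6J (B6) mice. ESCs were kept in naive conditions, and EpiLCs are the state that follows naive pluripotency. RNA was sequenced in ESCs and EpiLCs of 33 BXD lines with 1 library per line and state, of 3 D2 lines (D29, D55 and DAC203) and of 3 B6 lines (B41, B44 and B51). The F1 was sequenced as ESCs of 3 lines (F116, F117 and F124). No transgene, deletion or drug distinguishes these groups in the labels, and the sex and passage of the lines are not used here. The D2, B6 and F1 replicates are separate cell lines of one strain or hybrid, whose embryos of origin the labels do not give. Between these groups, p-values measure the spread between those lines. Each BXD line is of another strain, so p-values of BXD against the parental mean pool the spread between BXD strains with that between parental lines. Each value is a normalized RNA signal of one gene in one library, the values of a library sum to between 875065 and 1230020, and the number of reads behind a value is unknown.

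The labelled cell types were set against marker genes. The 7 naive and core pluripotency markers, Pou5f1 among them, summed to 4076 to 4284 in D2 ESCs and to 4040 to 4264 in B6 ESCs, and to 1044 to 1174 in D2 EpiLCs and 837 to 886 in B6 EpiLCs. In BXD EpiLCs that sum ran from 565 to 2371, with a median of 1169. The similar ESC sums held genes that went opposite ways without overlap. Nanog (774 to 875 in D2, 657 to 725 in B6) and Esrrb were higher in D2 ESCs. Tfcp2l1 (1169 to 1225 in D2, 1430 to 1512 in B6) was lower, and Pou5f1, Sox2, Zfp42 and Klf2 overlapped. In EpiLCs Pou5f1, Sox2, Esrrb, Zfp42 and Klf2 were higher in D2 without overlap, and Nanog and Tfcp2l1 overlapped. The markers of the formative state, of which Fgf5 was not listed in ESCs, summed to 225 to 293 in D2 ESCs and 101 to 141 in B6 ESCs. In EpiLCs they summed to 835 to 2514 in BXD lines, with a median of 1161, to 1745 to 1845 in D2 and to 2033 to 2499 in B6. The formative sum was thus higher in D2 ESCs and lower in D2 EpiLCs than in B6, without overlap, and its part in the results was not tested. Dnmt3b made up most of the EpiLC sum, with 1411.5, 1348.5 and 1348.6 in D29, D55 and DAC203 and 1909, 1666 and 2034 in B41, B44 and B51. In EpiLCs Dnmt3b and Lef1 were lower in D2, Fgf5 and Otx2 were higher, each without overlap, and Pou3f1 overlapped. Fgf5 had 49.8, 40.4 and 41.95 in D2 EpiLCs and 22.6, 24.1 and 30.05 in B6 EpiLCs. The 7 markers of fibroblasts, on which ESCs are often grown, summed to 938 to 1291 in D2 ESCs and to 832 to 1110 in B6 ESCs. In EpiLCs 5 of the 7 were listed, with Lum and Postn not listed, and their sums were 58.9 to 105 in D2 and 42.1 to 56.8 in B6. Of the primitive endoderm markers Gata6, Sox17 and Foxa2 were not listed in either table, and Gata4 was listed in both. Gata4 had 2.496, 2.322 and 5.205 in D29, D55 and DAC203 ESCs and 2.885, 2.221 and 2.879 in B41, B44 and B51 ESCs. In EpiLCs Gata4 had 1.188, 3.772 and 3.99 in these D2 lines and 0.9537, 1.034 and 1.098 in these B6 lines, without overlap. In BXD ESCs the fibroblast sum ran from 314 to 4193, and its part in the results was not tested.

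Ribosomal proteins assemble with ribosomal RNA into the small subunit (Rps genes) and the large subunit (Rpl genes) of the cytoplasmic ribosome. Many of their mRNAs begin with a cytosine followed by a run of pyrimidines, the 5′ terminal oligopyrimidine (TOP) tract through which mTOR signalling controls their translation. Because these mRNAs are abundant in the germ line and early embryo, reverse-transcribed intronless copies of them have accumulated in mammalian genomes as processed pseudogenes. A read that falls in a stretch shared by a gene and such a copy cannot be assigned to either by its sequence.

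A blastn search of the GENCODE M21 annotation (GRCm38) found 1591 copies of the members with at least 80% identity. Each copy was counted for 1 member alone, the best match, and 80 of the 85 members had at least one in this way. A count of 0 therefore does not mean that no copy resembles the member. Rps27 had 0 and Rps27rt had 16, although their coding sequences are 100% identical. The median member had 13 copies, and Rpl7a had the most with 135. A copy was called near-identical when it was a pseudogene or a single-exon gene that matched at least 80% of the coding sequence at 97% identity or more. The annotation held 345 such copies of 69 members. Of these, 76 copies were listed with their own value in the ESC table and 94 in the EpiLC table.

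The extent of the likeness can be read from 50 bases around a splice junction of 4 members and the same stretch of their copies, shown because the strain difference of these 4 members changed direction in ESCs when the copies were added. The 4 bases in capitals straddle the junction, where the member's gene has an intron and the copy has none. The introns at these places are 848 bases long in Rpl5, 132 in Rps6, 590 in Rpl15 and 2341 in Rpl35. The genes lie at chr5:107900502-107909005 (plus strand, Rpl5), chr4:86854660-86857412 (minus, Rps6), chr14:18267823-18271391 (minus, Rpl15) and chr2:39001580-39005624 (minus, Rpl35). Their copies lie at chr7:114705217-114706235 (minus, Gm15500), chr2:75191073-75191822 (minus, Rps6-ps4), chr9:22185607-22186221 (minus, Rpl15-ps3) and chr1:156366040-156366484 (plus, Gm2000). All coordinates are GRCm38, and each stretch is from the coding sequence, written 5′ to 3′.
Rpl5: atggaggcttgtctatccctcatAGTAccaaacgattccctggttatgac
Gm15500, copy of Rpl5: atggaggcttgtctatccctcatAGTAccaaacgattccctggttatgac
Rps6: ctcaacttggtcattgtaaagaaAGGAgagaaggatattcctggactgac
Rps6-ps4, copy of Rps6: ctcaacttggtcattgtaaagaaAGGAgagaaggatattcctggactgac
Rpl15: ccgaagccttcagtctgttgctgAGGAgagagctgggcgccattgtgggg
Rpl15-ps3, copy of Rpl15: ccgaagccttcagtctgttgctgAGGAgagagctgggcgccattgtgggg
Rpl35: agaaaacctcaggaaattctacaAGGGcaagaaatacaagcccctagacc
Gm2000, copy of Rpl35: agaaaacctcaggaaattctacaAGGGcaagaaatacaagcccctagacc
Over the whole coding sequence the identity to the member was 100% for Gm15500, Rps6-ps4 and Rpl15-ps3 and 99.73% for Gm2000. Gm2000 is annotated as protein coding, and the other 3 are annotated as pseudogenes.

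The TOP tract is shown at the annotated starts of 5 members, since it is the feature that many ribosomal protein genes share and the selection by name did not use. Each window holds 40 bases before the start and 20 from it, from RefSeq (GRCm38.p6), with the run that begins at the start in capitals. The windows are chr14:18270967-18271026 (minus, Rpl15), chr2:39005112-39005171 (minus, Rpl35), chr4:86857348-86857407 (minus, Rps6), chr11:114668540-114668599 (plus, Rpl38) and chr7:141447611-141447670 (plus, Rplp2).
Rpl15: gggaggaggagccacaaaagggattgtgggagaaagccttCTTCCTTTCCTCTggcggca
Rpl35: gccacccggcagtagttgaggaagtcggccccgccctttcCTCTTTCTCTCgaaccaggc
Rps6: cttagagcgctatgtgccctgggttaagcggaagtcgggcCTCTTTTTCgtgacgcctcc
Rpl38: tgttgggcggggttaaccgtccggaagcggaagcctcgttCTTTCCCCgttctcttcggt
Rplp2: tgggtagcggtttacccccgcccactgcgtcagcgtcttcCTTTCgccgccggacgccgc
RefSeq windows were matched for 65 of the 85 members, with 1 window a gene. A cytosine followed by at least 4 pyrimidines stood at the annotated start in 13 of the 65, or 20%, against 2.49% of 26960 other genes. In the window from 250 bases before to 50 bases after the start, CCGGAAG on either strand, the core of an ETS factor site, occurred in 36.9% of the members and 9.01% of the other genes. AAGATGGC, part of a YY1 site, occurred in 7.69% and 2.84%, and TATAAA in 9.23% and 14.2%.

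In ESCs the ribosomal protein genes were lower as a group in D2 than in B6. The median D2 minus B6 difference over the 83 members was -0.27 on the log2(value + 1) scale, and it was -0.04 over all genes tested. A difference was called where the limma test, adjusted over all genes by the Benjamini-Hochberg method, gave p under 0.05. By this rule 46 members were lower in D2, or 55.4%, where 20.3% of all 12694 genes were lower, and 8 were higher, or 9.64%, against 17.3% of all genes. All D2 libraries lay below all B6 libraries in 53 members, or 63.9%, against 27.9% of all genes, and above them in 9, or 10.8%, against 23.5%. In bulk RNA, fewer cells that express a gene and less RNA per cell cannot be told apart.

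The joint level of a library, taken as the median over the members of log2(value + 1) minus the gene's mean over the 6 parental libraries, was -0.10 in D29, -0.27 in D55 and -0.05 in DAC203. It was 0.23 in B41, 0.03 in B44 and 0.14 in B51, so the strains did not overlap. Summed, the members made up 5.76, 5.24 and 6.03% of the library in D29, D55 and DAC203, against 6.95, 6.03 and 6.66% in B41, B44 and B51. The highest D2 library and the lowest B6 library were thus at about the same share. It was 6.033% in DAC203 and 6.026% in B44, so the strains overlapped slightly in the share. The mean was 5.68% ± 0.40 in D2 and 6.55% ± 0.47 in B6 (SD, n = 3 each).

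**Figure D1:**
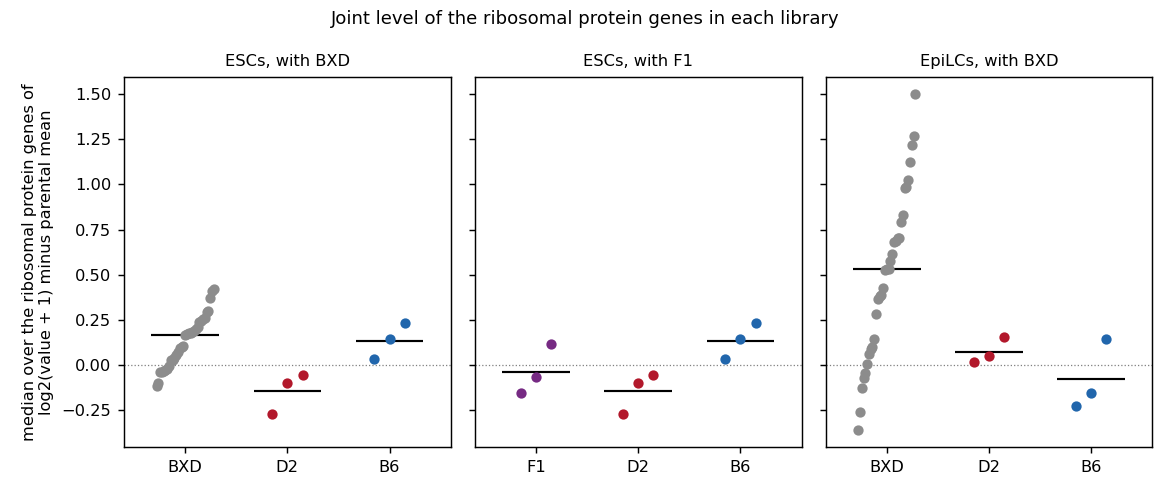
Joint level of the ribosomal protein genes in each library (y axis, median log2 deviation from the parental mean) for BXD or F1, D2 and B6 lines in the 2 ESC tables and the EpiLC table. Points are libraries, and bars are means of D2, B6 and F1 and medians of BXD. D2 lies between -0.27 and -0.05 and B6 between 0.03 and 0.23 in ESCs, while in EpiLCs B44 at 0.14 stands among the D2 libraries and BXD lines reach 1.501.

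Among the stalk proteins, which recruit translation factors to the large subunit, Rplp0 had 1770, 1628 and 1894 in D29, D55 and DAC203, against 2950, 2726 and 2822 in B41, B44 and B51. All D2 values lay below all B6 values, and the difference was -0.69 ± 0.08 (log2, SE, adjusted p = 2.98e-04). The other stalk proteins had smaller differences that did not pass the test, with -0.24 ± 0.10 for Rplp1 and -0.13 ± 0.10 for Rplp2. Of the large subunit, Rpl13a, known from mammalian cells for a role in silencing inflammatory mRNAs, was lower by a log2 difference of -0.65. Rpl7 was lower with -0.47 ± 0.09 (adjusted p = 0.00248). Of the small subunit, Rps7, which binds the p53 regulator MDM2, had 245, 212 and 243 in D2 and 494, 435 and 461 in B6, a difference of -0.99 ± 0.09 (adjusted p = 4.66e-05). Rps3a1 was lower with -0.43 ± 0.08 (adjusted p = 0.00335), and Rps24 and Rps18 with -0.53 and -0.55.

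The count of members lower in D2 ESCs depended on the scaling and on single libraries more than the direction did. The median stayed negative with median-ratio scaling (-0.24) and quantile scaling (-0.21), and 28 members were lower with quantile scaling. When each library was corrected for the median shift of other genes of like coding length, a choice made after the data were seen, 25 members were lower and the median was -0.18. Leaving out 1 library gave 22 to 53 lower members, with 22 without B41, 22 without B51 and 30 without D55, and the 8 higher members became 5 without B44, without B51 or without D29. Scaling each library to the ribosomal protein genes themselves sets their median near 0 by construction and left 9 lower and 9 higher.

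In EpiLCs the strains overlapped in the joint level, which was 0.16 in D29, 0.05 in D55 and 0.02 in DAC203, and -0.22 in B41, 0.14 in B44 and -0.15 in B51. The median difference over 84 members was 0.16, against 0.00 over all genes. By the same test 27 members were higher in D2, or 32.1%, close to the 28.5% of all 12692 genes, and 5 were lower, or 5.95%, where 29% of all genes were lower. All D2 libraries lay above all B6 libraries in 24 members, or 28.6%, against 31.6% of all genes, and below them in 6, or 7.14%, against 32.1%. The 27 and the 24 both include Rps12, which passed the filter through its D2 values alone. The B6 line B44 carried much of the overlap between the strains: 47 members were higher without it, and 17 without B41. The members made up 6.73% ± 0.21 of the library in D2 EpiLCs and 6.04% ± 0.76 in B6 EpiLCs (SD, n = 3 each).

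Rplp0 had 3396, 2901 and 2820 in D2 EpiLCs and 2888, 3326 and 2889 in B6 EpiLCs, with a difference of 0.00 ± 0.10. The strains overlapped. Rplp1 was higher in D2 by 0.33 ± 0.10 (adjusted p = 0.0106) and Rplp2 by 0.29 ± 0.09 (adjusted p = 0.0197), and both missed the threshold without B41 (adjusted p = 0.063 and 0.114) and without D55 (0.0515 and 0.0577), as did Rplp2 without D29 (0.0801).

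The strain difference itself differed between the states. The D2 minus B6 difference in EpiLCs minus that in ESCs had a median of 0.42 over 83 members, against 0.05 over all genes, and the interaction test called 47 members higher (56.6%), against 20% of all 11745 genes. It called 2 lower (2.41%), against 16%. Rplp0 had an interaction of 0.69 ± 0.13 (adjusted p = 8.62e-04) and Rplp1 one of 0.57. The 2 lower members were Rpl5 and Rpl24, whose values depend on copies and are given below. The count was 31 with the correction for coding length and 31 without the B41 EpiLC library, and 62 without the B44 EpiLC library.

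Single genes departed from the joint shift in both directions. In ESCs 10 members lay more than 0.5 from the median difference, and 7 of them had a near-identical copy in the table. Among them were Rpl5, Rps6, Rpl15, Rpl38 and Rpl35 above the median and Rps7 below it. When each member was summed with its near-identical copies, a choice made after the data were seen, 3 members stood apart: Rpl39l, Rpl10l and Rps19bp1, none of which has a copy in the table. With the sum, 47 of 83 members were lower in D2 ESCs and 2 were higher, and the median was -0.28. Without the sum 20.3% of all genes were lower in D2 ESCs and 17.3% were higher. In EpiLCs 16 members stood apart, 12 of them with a copy in the table, and with the sum 5 did: Rpl39l, Rpl10l, Rpl22, Rpl39 and Rps27. Rps27 was not summed with Rps27rt, a member of 100% identical coding sequence, since members were not counted as copies of each other. The calls in EpiLCs with the sum were 32 higher and 0 lower of 84 members. Without the sum 28.5% of all genes were higher in D2 EpiLCs and 29% were lower. For the interaction 61 of 83 members were higher and 0 were lower with the sum. The shares of all genes without it were 20% higher and 16% lower. The SD of the members around their median was 0.51 in ESCs and 0.62 in EpiLCs for the member alone, and 0.29 and 0.33 with copies. The 16 members apart and the SD of 0.62 include Rps12, whose difference alone, 3.48, was set in size by the pseudocount.

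**Figure D2:**
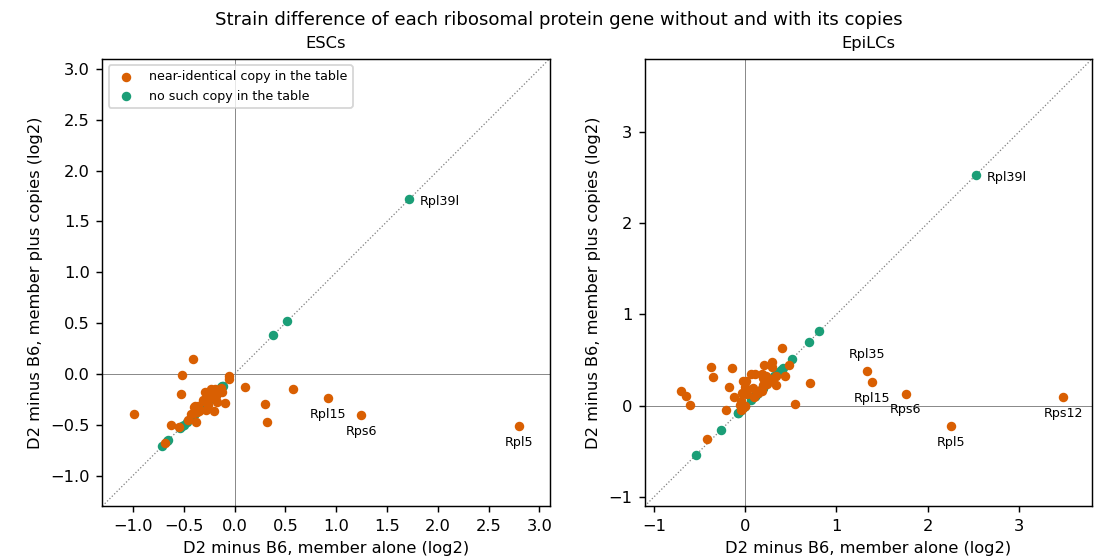
D2 minus B6 difference of each ribosomal protein gene alone (x axis, log2) against that of the gene summed with its near-identical copies (y axis, log2), in ESCs and EpiLCs. Rpl5, at 2.79 alone and -0.51 with copies in ESCs, and the other genes far right of the dotted line of equality have a copy in the table, whereas Rpl39l lies on the line.

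In ESCs the joint shift was also seen in members without a listed copy. Of 35 such members in ESCs, 21 were lower in D2 and 2 (5.71%) were higher, Rpl39l and Rps19bp1, with a median of -0.34. In both states these members include Rps27 and Rps27rt, which were not counted as copies of each other. Of the 48 members with a listed copy, 25 were lower and 6 (12.5%) were higher in ESCs, with a median of -0.26. Over all genes in ESCs 20.3% were lower in D2 and 17.3% were higher. In EpiLCs 12 of 31 members without a listed copy were higher, or 38.7%, where 28.5% of all genes were higher, and 0 were lower.

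Rps6, whose protein is phosphorylated by S6 kinases, had 1348, 1161 and 1417 in D2 ESCs, against 610, 508 and 537 in B6 ESCs. Its copy Rps6-ps4 had 3.79, 2.21 and 3.62 in D2 and 1250, 1132 and 1153 in B6. Rps6 alone was thus higher in D2 by 1.25 ± 0.10 (adjusted p = 2.80e-05), and Rps6 with its copy was lower by -0.40 ± 0.10 (adjusted p = 0.0101). The sums, 1352, 1163 and 1421 in D2 and 1859, 1640 and 1690 in B6, did not overlap. In EpiLCs Rps6 alone differed by 1.76 ± 0.09 and the sum by 0.13 ± 0.09, which did not pass the test (adjusted p = 0.205).

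Rpl5, which binds 5S ribosomal RNA and the p53 regulator MDM2, had 276, 277 and 263 in D2 ESCs and 36.7, 37.1 and 41.5 in B6 ESCs. Its copy Gm15500 held most of the signal in both strains, with 985, 915 and 1070 in D2 and 1932, 1679 and 1768 in B6. Alone, Rpl5 was higher in D2 by 2.79 ± 0.08 (adjusted p = 2.47e-08). With its copies it was lower by -0.51 ± 0.08 (adjusted p = 0.00148). In EpiLCs the differences were 2.26 ± 0.11 alone and -0.22 ± 0.10 with copies (adjusted p = 0.0874), and the lower interaction of Rpl5, -0.54 ± 0.14, became 0.29 ± 0.14 and was not called.

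Rpl15, Rpl35 and Rpl38 followed the same pattern in ESCs. Rpl15 had 1042, 970 and 1088 in D2 and 569, 526 and 544 in B6, with a difference of 0.92 ± 0.08 alone and -0.24 ± 0.08 with copies. Rpl35 had 519, 465 and 507 in D2 and 422, 368 and 405 in B6, with 0.32 ± 0.08 alone and -0.47 ± 0.08 with Gm2000. In each of these genes all D2 values of the member lay above all B6 values, while the sums with copies were lower in D2 and passed the test. Rpl38, which is known in mouse for its part in the translation of Hox mRNAs, was at 0.58 ± 0.15 alone and -0.15 ± 0.14 with copies, and the value with copies did not pass the test. The calls on the member alone missed the threshold for Rpl35 without B44, B51 or D29 (adjusted p = 0.05 to 0.0652) and for Rpl38 without B44 (0.0511).

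In ESCs the opposite pattern held in Rpl36al, Rpl21 and Rpl29, each lower in D2 in its own row and not called with copies. Rpl36al had 208, 166 and 193 in D2 ESCs and 254, 256 and 240 in B6 ESCs, a difference of -0.41 ± 0.09 (adjusted p = 0.0084). With Rpl36a-ps3 it was 0.15 ± 0.09 and did not pass the test (adjusted p = 0.22). Rpl29 had 392, 338 and 401 in D2 ESCs and 569, 527 and 529 in B6 ESCs, with -0.53 ± 0.09 alone (adjusted p = 0.00161) and -0.20 with copies (adjusted p = 0.101). In EpiLCs its own row held nearly all of the signal in both strains, and it was higher in D2 by 0.27 ± 0.07. Rps7 also had a lower share in D2 ESCs, 25.04% against 37.9% in B6, but stayed lower with copies, by -0.39 ± 0.08 (adjusted p = 0.00402). Rpl21 was lower in D2 EpiLCs by -0.37 ± 0.08 and higher with its 4 listed copies by 0.43 ± 0.08 (adjusted p = 9.04e-04). Rpl24, Rps13 and Rps28 were lower alone in D2 EpiLCs by -0.70, -0.65 and -0.35. With copies Rpl24 was at 0.16 and Rps13 at 0.10, without a call, and Rps28 was higher by 0.31 ± 0.10 (adjusted p = 0.0151). Of the 5 members lower in D2 EpiLCs, Rps7 was the remaining one, at -0.60 alone and 0.01 with copies.

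Rps12, a small-subunit protein, was listed almost wholly under its copies. Its own row in EpiLCs held 15.8, 11.6 and 5.65 in D29, D55 and DAC203 and at most 0.00828 in the B6 libraries. Its copies Rps12-ps3 and Rps12l1 held 417, 483 and 434, and 712, 522 and 523, in the D2 libraries, and 295, 490 and 377, and 551, 707 and 538, in B41, B44 and B51. The sums, 1144, 1016 and 963 in D2 and 846, 1197 and 915 in B6, overlapped. With the row near 0 in B6, the size of the difference alone was set by the pseudocount, at 3.48 with 1, 6.63 with 0.1 and 1.63 with 5. With copies the difference was 0.09 ± 0.12 (adjusted p = 0.538).

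The share of the summed signal that was listed under the member itself was steady within a strain. In ESCs it differed by over 10 percentage points between D2 and B6 in 10 members, chosen after their values were seen and given without a test. Rps6 held 99.8% ± 0.05 in D2, 31.7% ± 0.70 in the F1 and 31.8% ± 0.91 in B6 (SD, n = 3 each). Rpl35 held 99.9% ± 0.01 in D2, 58.4% ± 0.25 in the F1 and 57.6% ± 0.86 in B6. In these genes the F1 lay at the B6 share. All 33 BXD lines did so too, with 29.4 to 34.0% for Rps6 and 56.7 to 61.6% for Rpl35, and no line approached the D2 share.

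Rpl36al showed the reverse arrangement. It held 67.9% ± 1.01 in D2, 68.7% ± 1.58 in the F1 and 99.9% ± 0.02 in B6, and the BXD lines held 63.1 to 71.9%. Here the B6 lines alone stood apart. Rpl5 in the F1, at 11.1% ± 0.87, lay between D2 at 21.2% ± 1.67 and B6 at 2.10% ± 0.22, as did Rpl15 with 53.8% ± 0.36 in the F1, 93.2% ± 1.38 in D2 and 41.8% ± 0.37 in B6. Rpl38 also lay between, with 68.4% ± 0.76 in the F1, 94.2% ± 1.71 in D2 and 56.7% ± 2.21 in B6.

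**Figure D3:**
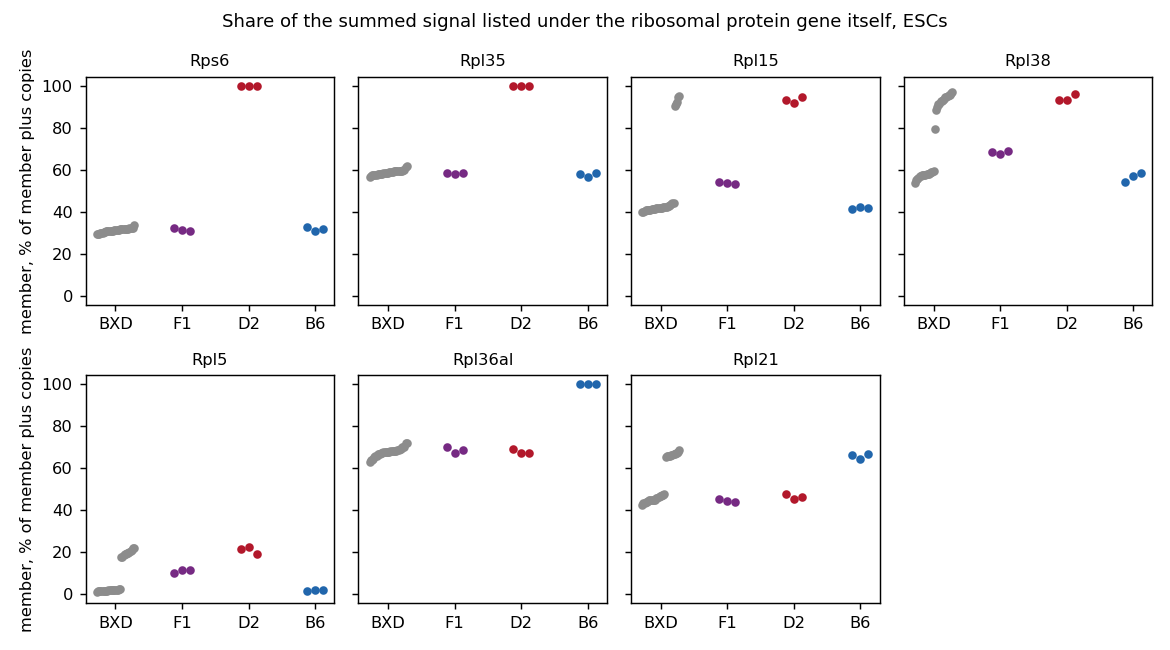
Share of the summed signal of member and copies that is listed under the member (y axis, percent) in BXD, F1, D2 and B6 ESC libraries, 1 point a library, for 7 members. For Rps6 and Rpl35 all BXD and F1 libraries lie beside B6, for Rpl36al they lie beside D2, and for Rpl15, Rpl38, Rpl5 and Rpl21 the BXD lines form separate high and low groups.

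In Rpl15, Rpl38, Rpl5 and Rpl21, the BXD lines split between the parental shares. Lines of the high and low groups numbered 5 and 28 for Rpl15, 16 and 17 for Rpl38, 12 and 21 for Rpl5, and 13 and 20 for Rpl21. No BXD line lay between 44.4 and 90.1% for Rpl15 or between 2.53 and 17.7% for Rpl5. A line was on the same side of the parental mean in EpiLCs as in ESCs in 33 of 33 lines for each of these 4 members, although the ESC and EpiLC tables were normalized apart. Shares of Rps7 and Rpl29 also split the lines in ESCs, into 17 and 16 and into 16 and 17, but 26 and 16 of 33 lines were on the same side in EpiLCs, where the parental shares of Rpl29 lay within 1 percentage point of each other.

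**Figure D4:**
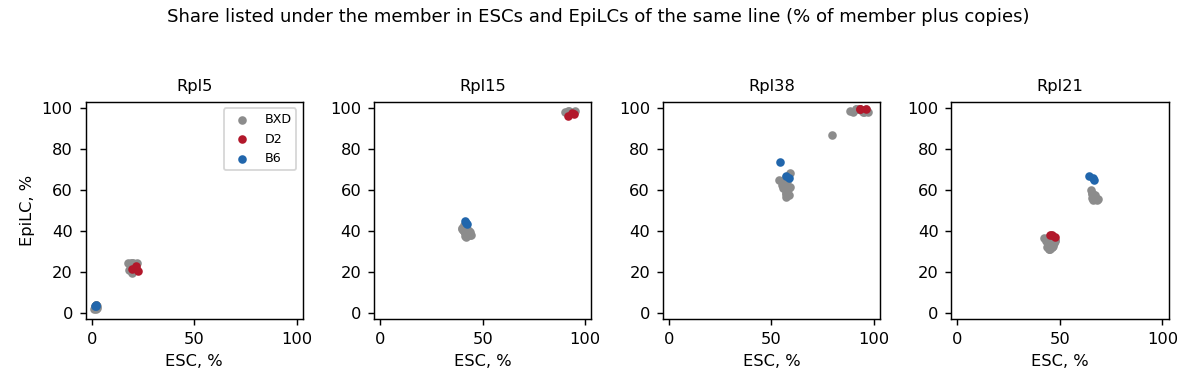
Share listed under the member in ESCs (x axis, percent) against the same line's share in EpiLCs (y axis, percent) for BXD, D2 and B6 lines. Each of the 4 members drawn forms a low and a high cluster, and no line changes cluster between the states.

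The F1 was set against the mean of its parents to see whether a hybrid lies midway. Of 83 members 2 were higher, or 2.41%, against 1.97% of all 12700 genes, and 4 were lower, or 4.82%, against 1.32% of all genes. Rps6 had 532, 445 and 446 in the F1 and was lower than the parental mean by -0.84 ± 0.09 (adjusted p = 3.44e-04). Rpl35 was lower by -0.50 ± 0.08 and Rpl21 by -0.34 ± 0.08. Rpl5 was higher by 0.68 ± 0.06 (adjusted p = 8.58e-05), and Rpl10, an X-linked large-subunit gene, by 0.61 ± 0.11 (adjusted p = 0.00953). All 6 called members have listed copies, and with copies 0 members were called in either direction, with Rps6 at -0.01 ± 0.08 and Rpl10 at 0.02 ± 0.07. The 35 members without a listed copy had no call. The F1 joint level was 0.11, -0.16 and -0.07 in F116, F117 and F124, values that lay among those of both parents, and the median difference was -0.04. Without F124 1 member was higher and 1 was lower, and Rpl10, Rpl35 and Rpl21 missed the threshold (adjusted p = 0.0565, 0.0614 and 0.236). Rpl21 also missed it without F117, D29 or any B6 library (0.0792 to 0.118).

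The BXD lines were set against the parental mean in each state. In ESCs 19 of 83 members were higher, or 22.9%, against 10.4% of all 12730 genes, and 3 were lower, or 3.61%, against 11%, with a median of 0.14. The highest was Rpl27, at 0.65 ± 0.19 (adjusted p = 0.0112), with 28.4 to 120 and a median of 64.2 in BXD lines, against 42.7, 34.2 and 35.2 in D2 and 35.6, 45.4 and 38.4 in B6. Its row held 3.63 to 11.7% of the signal with copies in BXD ESCs, and with copies the difference was 0.34 ± 0.10 (adjusted p = 0.0122). Rplp0 was higher by 0.25 ± 0.07 (adjusted p = 0.00993) and Rplp1 by 0.30 ± 0.08 (adjusted p = 0.00491). The lower members were Rps6, Rpl12 and Rpl35, and with copies all of them were above 0 without a call. The count of higher members was 6 without B44, 7 without D55, 11 without B51 and 12 without D29, and with the correction for coding length it was 2 higher and 4 lower.

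In EpiLCs the shift was larger. Here 41 of 84 members were higher in BXD lines, or 48.8%, against 13.2% of all 12735 genes. Another 3 were lower, Rps12 among them, or 3.57%, against 15%, and the median over the members was 0.51. The joint level of the lines ran from -0.36 in BXD64 to 1.501 in BXD45, with a median of 0.53. It lay above the highest parental library in 23 of 33 lines and below the lowest in 2. The members made up 5.32 to 12.9% of the library, the highest in BXD49. Rps21 had 367 to 1781 with a median of 794 in BXD lines, against 439, 434 and 427 in D2 and 297, 426 and 329 in B6, and was higher by 1.01 ± 0.25 (adjusted p = 0.0055). Rpl34 was higher by 0.99 ± 0.27, Rpl12 by 0.94 ± 0.27, Rplp2 by 0.79 ± 0.15 and Rplp0 by 0.44 ± 0.15. Rplp0 missed the threshold without B41, B51, D55 or DAC203 (adjusted p = 0.0704 to 0.082), and Rpl12 without B41 (0.0546). The count of higher members was 14 without B41 or without B51, 18 without D55 or without DAC203 and 24 without D29. Rps12 was higher by 1.06 ± 0.27 with copies, and its own row was near 0 in B6, so its value alone, -1.39, rests on D2 and on the pseudocount (-1.90 with 0.1). Rps6 was lower by -0.78 ± 0.17 alone and not called with its copies (adjusted p = 0.217).

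Other genes of short coding sequence moved with the members, line by line. In EpiLCs the median deviation of the 1450 other genes with at most 600 coding bases ran from -0.17 to 0.84 over the lines. It was above 0 in 29 of 33 lines. The median of the 1735 genes with over 3000 coding bases ran from -1.20 to 0.18 and was below 0 in 31. In BXD45, the line with the highest joint level, the short genes stood at 0.84 and the long ones at -0.96. In BXD64, the lowest, they stood at -0.17 and 0.17. With the correction for coding length, 19 members were higher and 7 were lower in BXD EpiLCs, and the median was 0.18. Of the members themselves, 59 of the 84 have at most 600 coding bases. RNA quality and library preparation per line are not used here, and their part in the shift was not tested.

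**Figure D5:**
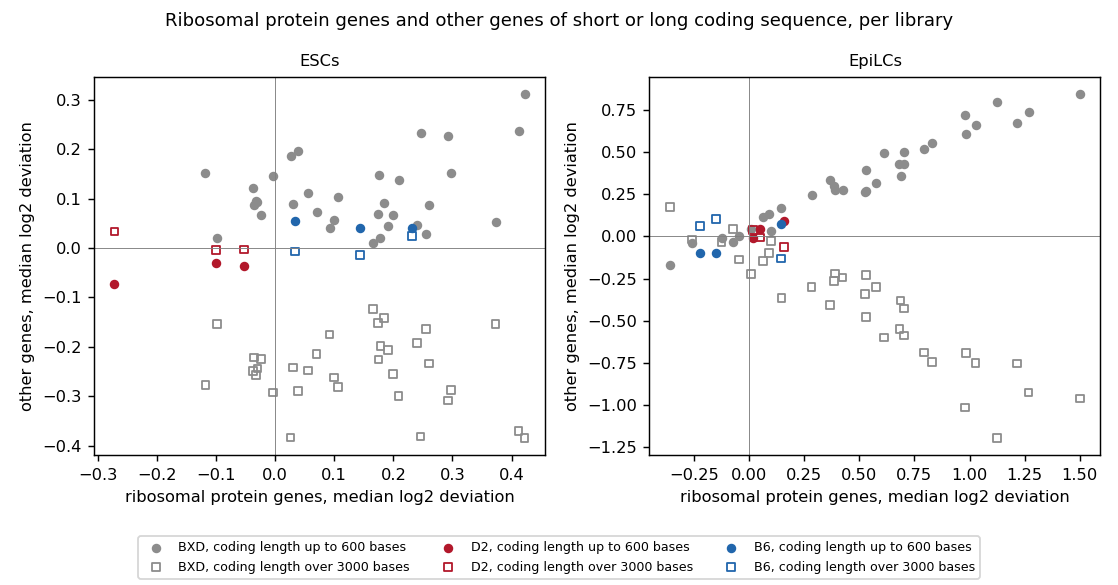
Median log2 deviation of other genes of short coding sequence (up to 600 bases, filled circles) and long coding sequence (over 3000 bases, open squares) on the y axis against that of the ribosomal protein genes on the x axis, per BXD, D2 and B6 library. In EpiLCs the short genes climb to 0.84 and the long genes sink to -1.20 across BXD lines, and in ESCs short genes lie above 0 and long genes below 0 in all 33 lines.

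In ESCs the BXD joint level ran from -0.12 in BXD69 to 0.42 in BXD68 and was above the highest parental library in 9 of 33 lines. The short genes were above 0 and the long genes below 0 in all 33. A line that was high as an ESC was not generally high as an EpiLC: 4 lines were among the top 11 of both states. Gene by gene, the rank correlation of the lines' levels between the states passed the test in 6 of 83 members, or 7.23%, near the 9.12% of all 11752 genes, and was positive in all 6. Among these were Rpl5, Rpl38, Rps7, Rpl21 and Rps4x. In the first 4 the lines fall into clusters by the share of signal listed under the member, so no pooled correlation is given for them. Rps4x, the X-linked small-subunit gene with no listed copy, had Spearman's rho of 0.54 (permutation test, adjusted p = 0.0209) and Pearson's r of 0.63 over 33 lines, and r was 0.39 without the 2 lines farthest from the median. By the same permutation test its call was lost with median-ratio scaling (rho 0.415, adjusted p = 0.119) and with scaling to the members (rho 0.236, adjusted p = 0.573). It was kept with the correction for coding length (rho 0.549, adjusted p = 0.0149).

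Of the paralogues, Rpl39l, an autosomal relative of X-linked Rpl39 known for its expression in testis, differed most between the strains. It had 63.9, 82.4 and 69.8 in D29, D55 and DAC203 ESCs, against 21.6, 16.8 and 25.6 in B41, B44 and B51. The difference was 1.72 ± 0.15 (adjusted p = 4.30e-05) in ESCs and 2.52 ± 0.19 (adjusted p = 8.93e-06) in EpiLCs, where D2 had 54.0, 64.95 and 75.4 and B6 had 7.71, 13.3 and 10.7. No near-identical copy of it was listed, and its coding sequence is 85.5% identical to that of Rpl39. Rpl39 itself, at -0.20 ± 0.10 in ESCs and -0.42 ± 0.17 in EpiLCs, did not pass the test in either state. In BXD lines Rpl39l ran from 17.7 to 95.5 in ESCs and from 3.44 to 329 in EpiLCs. The EpiLC range reached below the lowest B6 and above the highest D2 library, and the ESC range reached above the highest D2 library alone.

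Rpl10l, a retrocopy of Rpl10 known for replacing it in male meiosis, was higher in D2 EpiLCs by 0.70 ± 0.11 (adjusted p = 1.76e-04). In ESCs it had 52.2, 26.5 and 26.2 in D2 and 21.4, 22.35 and 24.97 in B6, and the difference of 0.52 ± 0.23 did not pass the test. D29 alone stood far above the rest. D29 was also apart in Rpl22 and its paralogue Rpl22l1. Rpl22 had 213, 396 and 432 in D29, D55 and DAC203 ESCs and 601, 494 and 539 in B41, B44 and B51, and Rpl22l1 had 172, 87.1 and 96.4 in D2 and 203, 160 and 178 in B6. In EpiLCs the D2 values were 209, 332 and 376 for Rpl22 and 178, 76.1 and 74.2 for Rpl22l1. In both states D29 had the lowest Rpl22 and the highest Rpl22l1 of the D2 lines. Both genes were lower in D2 ESCs, by -0.71 ± 0.23 and -0.66 ± 0.22 (adjusted p = 0.0356 and 0.0426), and lost the call in several alternatives, among them quantile scaling and leaving out any B6 library. Without D29 the differences were -0.39 for Rpl22 (adjusted p = 0.0317) and -0.96 for Rpl22l1 (adjusted p = 0.00124).

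Rps27 and Rps27rt, which encode small-subunit proteins, have coding sequences that are 100% identical, so their values cannot be told apart with certainty. Rps27rt was at -0.36 ± 0.09 in ESCs and 0.32 ± 0.11 in EpiLCs (adjusted p = 0.0116 and 0.0242), which missed the threshold without B41 in ESCs (0.0526) and without B41, B51, D29 or DAC203 in EpiLCs (0.0513 to 0.109). Rps27 had no call in either state. Of the other pairs, Rpl7l1, Rps4x and Rpl10 had no call between D2 and B6 in either state. Rpl36a, Rps27l and Rpl3 were lower in D2 ESCs by -0.34 ± 0.10, -0.38 ± 0.09 and -0.31 ± 0.10 and had no call in EpiLCs. Without B41 or without B51 none of these 3 passed (adjusted p = 0.0557 to 0.129), nor did Rpl36a and Rpl3 without D29 or D55 (0.0523 to 0.117). Rps19bp1, not a ribosomal protein, was higher in D2 in both states, by 0.38 ± 0.12 in ESCs (adjusted p = 0.0356), a call lost in 4 of the 6 analyses without 1 library, and by 0.52 in EpiLCs.

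Of the members, 7 lie on chromosome 11, among them Rpl38, Rpl26 and Rpl27, and the D2 line DAC203 was high over that chromosome. In ESCs the 1015 other chromosome 11 genes had a median deviation of 0.18 in DAC203, against -0.06 to -0.01 in the other 5 parental libraries, and the 7 members had 0.18. In EpiLCs DAC203 did not stand alone: the other genes were at 0.01, 0.069 and 0.095 in D29, D55 and DAC203, and at -0.07 to -0.04 in the B6 lines. Rpl38 stayed higher in D2 ESCs without DAC203, at 0.40 (adjusted p = 0.00424), and without DAC203 53 members were lower in D2 ESCs.

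Accessibility at the members' starts moved in the same direction as at other protein-coding starts in each state. ATAC-seq marks open chromatin by where a transposase can cut, and it gave a region within 1000 bases of the start for 84 members in ESCs, in 83 regions. In D2, 34 regions were higher, or 41%, and 12 were lower, or 14.5%, against 38.9 and 7.97% of the 10232 regions at all protein-coding starts, and 22.2 and 24.7% of all 112226 regions. In EpiLCs 2 of 82 regions were higher, or 2.44%, and 46 were lower, or 56.1%, against 3.22 and 67.5% at all protein-coding starts, and 25.6 and 32.6% of all 100415 regions. At the start of Rpl39l accessibility was 7.46, 8.43 and 7.17 in D2 ESCs and 3.19, 3.93 and 4.15 in B6 ESCs (deposited normalized signal), a log2 difference of 1.02 ± 0.12 (adjusted p = 1.35e-06). In EpiLCs it was 1.30 ± 0.15 (adjusted p = 2.67e-10), so accessibility and RNA of Rpl39l were both higher in D2 in both states. No other member had a difference as large in either state. At the start of Rplp0 the difference was 0.12 ± 0.07 in ESCs and -0.04 ± 0.06 in EpiLCs, and neither passed the test.

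In the embryoid bodies, aggregates in which the cells differentiate, 1 pooled library gave 20134 cells and 723201396 UMIs, of which 22.96% came from the members. All 85 members had at least 1 UMI. Rpl41 was the highest with 7765 UMIs per 1000000 (95% exact Poisson interval 7759 to 7772, which covers counting error only), and Rplp0 had 5530. Rpl5 had 1695, Rps6 1818, Rps12 3415 and Rpl35 1086 UMIs per 1000000. Rpl39l had 0.0788, Rpl3l 0.0498 and Rpl10l 0.0401, or 57, 36 and 29 UMIs in all. Of the near-identical copies 17 were features of this library, and Gm2000 had 16.2 UMIs per 1000000 beside Rpl35. Rps6-ps4, Gm15500 and Rpl15-ps3 were not among them, so in this library those copies had no row of their own. All barcodes of the deposited matrix were summed and no doublet caller was run. With 1 library no test was made.

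Other parts of the translation machinery were counted from lists of genes by role, and are set beside all genes, of which 17.3% were higher and 20.3% lower in D2 ESCs. In ESCs 11 of 20 genes known for TOP mRNAs, which include translation factors, were lower in D2, or 55%, and 0 were higher, with a median of -0.28. Among the lower ones, Nap1l1, a histone chaperone with a TOP mRNA, had 537, 630 and 489 in D2 and 930, 989 and 954 in B6. Of 49 genes of ribosomal RNA processing 14 were lower, or 28.6%, and 1 was higher, with a median of -0.13. Lower shares were no larger than over all genes in the mitochondrial ribosomal proteins, with 12 of 78 lower (15.4%) and 3 higher, and in the RNA polymerase I genes, with 2 of 14 lower and 0 higher. Of 19 growth regulators such as Mtor and Tsc2, 7 were higher (36.8%) and 2 were lower. In D2 EpiLCs, where 28.5% of all genes were higher and 29% lower, 29 of the 78 mitochondrial genes were higher (37.2%) and 8 were lower.

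In BXD EpiLCs the lists did not move together. Their counts were made without the correction for coding length, and the part of coding length in them was not tested. The mitochondrial ribosomal proteins had a median deviation of 1.26 in BXD45 and -0.35 in BXD64, where the other short genes stood at 0.84 and -0.17. Of the mitochondrial ribosomal proteins 42 of 78 were higher than the parental mean, or 53.8%, against 13.2% of all genes, and 1 was lower, with a median of 0.49. Of the ribosomal RNA processing genes 14 of 49 were lower, or 28.6%, against 15% of all genes, and 2 were higher. Of the growth regulators 8 of 19 were lower, or 42.1%, and 0 were higher, with a median of -0.33. The genes known for TOP mRNAs had 5 higher and 4 lower of 20, and the RNA polymerase I genes had 1 higher and 2 lower of 14.

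The ribosomal proteins Fau and Rpsa, whose symbols the rule did not cover, had larger differences in ESCs than any member but Rpl5. Fau, which encodes RPS30 fused to a ubiquitin-like protein, had 343, 299 and 347 in D2 ESCs and 60.99, 51.2 and 62.5 in B6 ESCs, with a difference of 2.48 ± 0.10 (adjusted p = 3.06e-07). Rpsa, the small-subunit protein also known as the laminin receptor, had 313, 287 and 332 in D2 and 1721, 1483 and 1602 in B6, with -2.36 ± 0.09 (adjusted p = 1.79e-07). Copies of these genes were not searched.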

How the data were processed

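Members and gene lists were chosen with earlier results of these data known. The submitters' processing notes name HISAT2 2.0.5, Cell Ranger, Bowtie 1.0.0, the build mm10 and MACS 1.4.2 without a role. The genome to which each strain was mapped, and how reads with several matches were counted, are not given in the sources. The authors deposited RNA and ATAC tables of normalized signal, and the embryoid body matrix as UMI counts, summed here over cells. ESC and EpiLC tables were normalized separately, and levels were not compared between them. ATAC values were whole reads divided by a library factor (whole within 0.01 reads), with 16300000 to 24300000 reads per parental library.

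Differences were tested with limma 3.58.1 (R 4.3.3, trend and robust) on log2(value + 1) for RNA and log2(value + 0.1) for ATAC, with genes of mean 0.5 or more, adjusted over the whole table. edgeR 4.0.16 on recovered ATAC reads was an alternative. Copies were found with blastn 2.17.0. The tests were checked on simulated data. Named genes were the 6 largest called differences in a comparison, members over 0.5 from the median difference, and paralogues and stalk genes. Single-gene results of some members are not reported here, and the counts include them. The interaction used the same cell lines in both states, and its deviations correlated between states with r of -0.00 to 0.18.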

Additional observations from a re-analysis of the deposited data

Results flagged for a closer look

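For 14 named members the D2 minus B6 difference itself differed between EpiLCs and ESCs by the limma interaction test (adjusted over all genes). The difference in EpiLCs minus that in ESCs was 1.01 for Rpl35, 0.81 for Rpl39l, 0.80 for Rpl29, 0.77 for Rps24, 0.69 for Rpl23a and 0.69 for Rplp0. It was 0.68 for Rps27rt, 0.57 for Rplp1, 0.50 for Rpl36a, 0.42 for Rpl7, 0.42 for Rplp2 and 0.37 for Rps3a1. It was below 0 for Rpl5, at -0.54, and for Rpl24, at -0.47, and both were above 0 with copies, at 0.29 and 0.31, without a call. For the other named members the values are of the member alone. The row of Rpl29 held 79.2% of its signal with copies in D2 ESCs and 99.6% in B6 ESCs. In EpiLCs it held 99.9 and 99.5%. Over the 12 analyses without 1 library, the call was lost in 8 for Rpl39l (adjusted p = 0.058 to 0.078), in 8 for Rps3a1 (0.0565 to 0.107) and in 6 for Rplp2 (0.0506 to 0.087). It was lost for Rpl36a without the B41 EpiLC library (0.0533), and in none of the 12 for the other 10 genes.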

How the results depend on the processing

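Pseudocounts and the filter on low values changed no count of members by over 1.5 times. For the other settings that did, the cause was not tested. With members summed with near-identical copies, the counts were 2 higher in ESCs, 0 lower in EpiLCs, 0 lower for the interaction, 0 and 0 for the F1, 0 lower in BXD ESCs, 1 lower in BXD EpiLCs and 1 correlated between states. With the correction for coding length they were 25 lower in ESCs, 8 lower in EpiLCs, 31 higher and 5 lower for the interaction, 2 higher in BXD ESCs, 19 higher and 7 lower in BXD EpiLCs and 11 correlated. With both they were 3 higher and 27 lower in ESCs, 2 lower in EpiLCs, 0 and 0 for the F1, 1 and 1 in BXD ESCs and 24 higher in BXD EpiLCs. Quantile scaling gave 28 and limma without trend and robust 30 lower in ESCs. Scaling to the members gave 9 lower in ESCs, 11 higher and 8 lower in EpiLCs and 16 correlated, and median-ratio scaling gave 3 correlated. edgeR gave 4 higher ATAC regions in EpiLCs.

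With copies the direction turned in ESCs for Rpl15 (-0.24), Rpl35 (-0.47), Rpl36al (0.15), Rpl38 (-0.15), Rpl5 (-0.51) and Rps6 (-0.40). It turned in EpiLCs for Rpl21 (0.43), Rpl24 (0.16), Rpl36al (0.41), Rpl5 (-0.22), Rps13 (0.10), Rps28 (0.31) and Rps7 (0.009), and for the interaction of Rpl24 (0.31), Rpl5 (0.29), Rps13 (0.36) and Rps28 (0.57). It turned for the F1 in Rpl5 (-0.042), for BXD ESCs in Rpl12 (0.13), Rpl35 (0.036), Rpl36al (0.21) and Rps6 (0.15), and for BXD EpiLCs in Rps12 (1.06) and Rps6 (0.26). With copies and coding length it turned in ESCs for Rpl15 (-0.19), Rpl35 (-0.35), Rpl36al (0.28), Rpl38 (-0.018), Rpl5 (-0.46) and Rps6 (-0.34), and in EpiLCs for Rpl21 (0.36), Rpl24 (0.091), Rpl36al (0.29), Rpl5 (-0.23), Rps13 (0.025) and Rps28 (0.19). It also turned for the F1 in Rpl5 (-0.061), for BXD ESCs in Rps6 (0.012) and for BXD EpiLCs in Rps12 (0.70) and Rps6 (0.076).

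Without 1 library, members numbered 5 to 9 higher and 22 to 53 lower in ESCs, 17 to 47 higher and 5 to 7 lower in EpiLCs, 31 to 62 higher and 2 to 3 lower for the interaction, 1 to 2 higher and 1 to 5 lower for the F1, 6 to 18 higher and 3 lower in BXD ESCs, and 14 to 40 higher and 2 to 3 lower in BXD EpiLCs. ATAC regions numbered 27 to 33 higher and 10 to 12 lower in ESCs and 1 to 3 higher and 37 to 50 lower in EpiLCs. Same-numbered libraries of D2 and B6 did not deviate together (r -0.39 to -0.07 in ESCs and -0.24 to 0.01 in EpiLCs), so the numbers do not pair them. The replicate block gave 5 higher and 25 lower in ESCs, 27 and 7 in EpiLCs, and 1 higher ATAC region in EpiLCs, and the block by cell line gave 40 higher and 2 lower for the interaction. The depth behind the RNA values is unknown.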
